A study of Arabidopsis thaliana with 24 samples.

Results

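Plastid-encoded transcripts were followed in developing seeds of Arabidopsis thaliana. The members are all loci of the deposited count table whose code begins with ATCG, the prefix of the plastid genome, which gave 133 of 33597 loci. Of these, 89 held at least 1 count and 44 were at 0 in every library, and 68 passed the filter on low counts that precedes the tests. The table gives codes only. Gene symbols and classes were assigned from the established naming of these codes and checked against the RefSeq annotation of the plastid genome (assembly TAIR10.1): 126 codes matched a gene of the same symbol, their starts increased in the order of the codes, and the 7 unmatched codes belong to rps12, ycf15 and the 5S ribosomal RNA.

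The mutants were lec1-1 and lec2-1 in the Wassilewskija ecotype with the wild type Ws, abi3-5 and abi3-1 in Landsberg erecta with the wild type Ler, and fus3-3 in Columbia with the wild type Col-0. LEC1, LEC2, ABI3 and FUS3 are transcriptional regulators of seed maturation. Desiccation kills fus3-3, lec1-1 and abi3-5 seeds according to the description of the series, whereas lec2-1, the weak allele abi3-1 and the wild types survive it (the sample labels call abi3-1 intolerant, and the description was followed). All plants were grown alike, and whole seeds were dissected from siliques at 15, 17 and 21 days after flowering (DAF). RNA was pooled before sequencing, which gave 1 library for a genotype on a day. Days of 1 genotype therefore served as its repeats. The p-values between genotypes rest on the spread left after a shared term for each day, estimated over all genotypes. In lec2-1 the columns for 15 DAF and 17 DAF hold the same values throughout and entered as 1 library, which left 23 distinct libraries with 1670355 to 6531673 counts, of which 935 to 41397 were plastid counts.

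Seed storage proteins, the defining product of the maturing embryo, took 14.99 to 62.5% of counts in the libraries of the wild types. Their share fell with the day in Ws and Ler, but the Col-0 libraries labelled 17 and 21 DAF held 18.5 and 62.4%, against that order. Numbers of called plastid loci that rest on these Col-0 libraries are therefore given, for the main comparisons, also with them exchanged or left out. Shares and ratios by day and the values of single genes are given only with the days as labelled. Summed markers of the silique wall (7 genes, none at 0 in all libraries) reached 10.6 to 15.4 CPM (counts scaled to a common library total) in lec1-1 and 2.35 to 5.51 CPM in Ws, 3.99 to 7.18 CPM in lec2-1, 8.16 to 11.3 CPM in abi3-5, 0.571 to 16.4 CPM in abi3-1 and 1.14 to 12.0 CPM in Ler, and 6.66 to 13.9 CPM in fus3-3 and 2.99 to 9.91 CPM in Col-0. Summed endosperm markers (5 genes, none at 0 in all libraries) reached 245 to 367 CPM in lec1-1 and 567 to 815 CPM in Ws, 152 to 509 CPM in abi3-5 and 444 to 593 CPM in Ler, and 103 to 339 CPM in fus3-3 and 412 to 1041 CPM in Col-0. They reached 1051 to 1258 CPM in lec2-1, above every Ws and lec1-1 library, and 278 to 481 CPM in abi3-1, which overlapped abi3-5 and Ler. Summed seed coat markers (6 genes) overlapped between each mutant and its wild type. Of these markers, 3 of 7 silique wall, 1 of 5 endosperm and 4 of 6 seed coat genes passed the filter on low counts. The sums therefore need not reflect several genes that move together. They are on library totals, a scale on which the typical locus also differed between genotypes, as given below. The part of these tissues in the results was not tested.

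The plastid genome is a small circular chromosome that encodes part of the photosynthetic machinery and part of the machinery for its own expression, while most plastid proteins come from the nucleus. It is transcribed by a bacterial-type polymerase (subunits rpoA, rpoB, rpoC1 and rpoC2, directed by nuclear sigma factors) and by nuclear phage-type polymerases. Arabidopsis embryos are green in mid-development, and their plastids lose chlorophyll and thylakoids as the seed matures. Plastid messenger RNAs mostly lack the long poly(A) tails of nuclear messengers, and a short tail marks them for decay.

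Per the labels the RNA was amplified before sequencing, with a kit known to prime its first step with oligo(dT), which pairs with runs of A. The part of this step in the levels was not tested. The plastid genes seen most and least are shown with the A-richest stretch of 20 bases found within 150 bases after the end of the gene. Sequences are of the sense strand from RefSeq (TAIR10.1, plastid genome, Pltd), 5′ to 3′, and capitals mark A. The 5 protein genes with the most counts per kilobase over all libraries were these.
rps4, 16 A, Pltd:45187-45206, minus strand: AAAAAAAAAAAttActAAAA
ndhC, 18 A, Pltd:49952-49971, minus strand: AAAAAAAAAAAAAgtAAAAA
atpE, 17 A, Pltd:52182-52201, minus strand: AAAAAcAAtAAAAtAAAAAA
psbJ, 12 A, Pltd:63388-63407, minus strand: gAAAAAtgAActtAActAAA
atpB, 11 A, Pltd:52600-52619, minus strand: ggAttcAgAAgtAAAAgAAA
The 5 protein genes of 300 bases or more with the fewest counts per kilobase are set beside them.
rps16, 14 A, Pltd:5044-5063, minus strand: AAAttAAtgAAAtAtAAAAA
rps14, 8 A, Pltd:36836-36855, minus strand: AtttgtAcAgAtAtggAAgA
ndhG, 12 A, Pltd:118347-118366, minus strand: AAAttAttAAAgAccAAAgA
rpoB, 11 A, Pltd:22990-23009, minus strand: AAAAtAAtAcctAAtggAgA
petD, 11 A, Pltd:77779-77798, plus strand: AAtttAAttAAttAAttAAA

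The number of A in this window and the counts per kilobase had a Spearman rho of 0.45 over 72 protein genes, given as a description because neighbouring genes share transcripts and all share the same libraries. The rho with the A-richest window inside the gene was -0.14, with the longest run of A -0.10, with A+T content -0.08 and with gene length -0.23. The genes shown were picked by level, summed over all libraries and ecotypes. Their sequences are those of the reference genome and were not checked in each ecotype. In the Columbia background rps4 made up 2.49 to 6.46% of plastid counts, below every library of the other ecotypes. rps4, ndhC and atpE had 90790, 73565 and 48196 counts per kilobase, but they are 3 of 11 such genes with 16 or more A in the window, and the others ranged down to 460 counts per kilobase (rps2). Among these, ccsA and rps18 have 17 A each and had 2172 and 2578 counts per kilobase. In atpB, at 34945 counts per kilobase, the window lies inside its neighbour atpE: the genes share 4 bases at Pltd:52660-52663, where the start codon of atpE (capitals) overlaps the end of atpB.
Junction of atpB and atpE, Pltd:52647-52676, minus strand: gtaaattgaagaaATGAccttaaatctttg
The counting is not stated to be strand-specific or to split overlaps, so reads at such junctions cannot be assigned with certainty, and the same holds for matK, which lies within the intron of trnK.

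**Figure D1:**
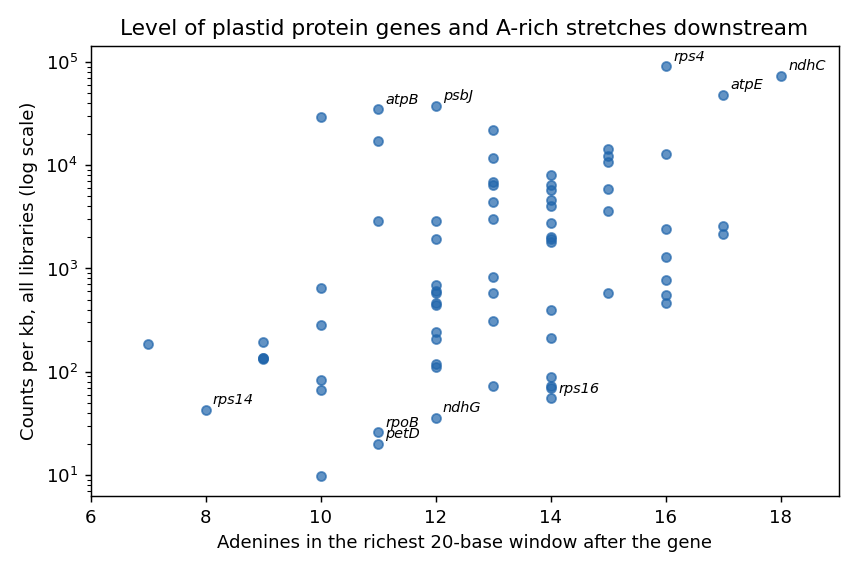
Counts per kilobase of gene over all libraries (log axis) against the number of A in the richest 20-base window within 150 bases after the gene, for plastid protein genes outside the inverted repeat that held counts. Each point is 1 gene. rps4, ndhC and atpE lie at the upper right, with 16 to 18 A, while atpB and psbJ reach high levels with 11 and 12 A and other genes with 16 or 17 A lie far lower.

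Loci at 0 followed the structure of the genome. All 31 matched codes with at least 90% of their length inside the inverted repeat of 26264 bases (Pltd:84171-110434 and Pltd:128215-154478) were at 0 in every library, while of the 95 matched codes outside it 7 were at 0, all of them transfer RNAs. The ribosomal RNA genes lie in the repeat, and all 8 codes were at 0. How reads that match both copies were treated is not given in the sources used here, and the shares below hold neither ribosomal RNA nor genes of the repeat such as rpl2, ycf2 and ndhB.

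The plastid share of library counts was larger in lec1-1, lec2-1, abi3-5 and fus3-3 than in their wild types on each day. In lec1-1 the share was 1.04% at 15 DAF, 1.10% at 17 DAF and 1.48% at 21 DAF, against 0.0305, 0.0393 and 0.0499% in Ws. The lec2-1 share was 0.206% in the library of 15 and 17 DAF and 0.341% at 21 DAF. Every lec1-1 library lay above every lec2-1 library, and these above every Ws library. The lec1-1 share was 34.0, 27.9 and 29.6 times that of Ws by day, and the lec2-1 share 5.94 and 6.83 times.

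In abi3-5 the share was 0.328% at 15 DAF, 0.243% at 17 DAF and 0.437% at 21 DAF, against 0.0987, 0.0474 and 0.0646% in Ler. In abi3-1 it was 0.121, 0.0452 and 0.139% on the same days. The abi3-5 libraries lay above all Ler and abi3-1 libraries, by 3.32, 5.12 and 6.76 times over Ler, while abi3-1 overlapped Ler, at 1.22, 0.953 and 2.15 times. These ratios in abi3-5 depend strongly on the denominator, as given below. In fus3-3 the share was 0.684, 0.434 and 0.923% at 15, 17 and 21 DAF, against 0.0853, 0.121 and 0.0653% in Col-0, and no libraries overlapped. The ratio was 8.02, 3.57 and 14.1 by day. The Col-0 libraries of 17 and 21 DAF, which set the ratios of 3.57 and 14.1, are those that go against their order.

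Exact binomial 95% intervals, which cover counting error only, ran from 0.0285 to 0.0325% in the smallest share (Ws, 15 DAF) and from 1.46 to 1.49% in the largest (lec1-1, 21 DAF). Neither interval reached the share of that genotype on another day. Averaged over days, the share was 1.20 ± 0.239% in lec1-1, 0.273 ± 0.0955% in lec2-1 (SD, n = 2) and 0.0399 ± 0.00973% in Ws. It was 0.336 ± 0.0971% in abi3-5, 0.102 ± 0.0497% in abi3-1 and 0.0702 ± 0.0261% in Ler, and 0.680 ± 0.245% in fus3-3 and 0.0907 ± 0.0285% in Col-0 (SD, n = 3 each).

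The denominator of these shares moves with the seed storage transcripts, which took 7.45 to 14.3% of counts in lec1-1, 15.4 to 23.8% in abi3-5 and 9.93 to 21.2% in fus3-3. Mitochondrion-encoded loci (146 codes beginning with ATMG) serve as a second organelle in the same libraries. Their share was 0.162 ± 0.0493% in lec1-1 and 0.0800 ± 0.0400% in Ws, 0.0689 ± 0.0230% in abi3-5 and 0.0783 ± 0.0570% in Ler, and 0.201 ± 0.132% in fus3-3 and 0.0794 ± 0.00403% in Col-0. With the seed storage genes taken out of the denominator the mean log2 ratio of the plastid share was 4.18 in lec1-1 over Ws, 1.54 in abi3-5 over Ler and 2.14 in fus3-3 over Col-0, against 4.93, 2.28 and 2.89 with all counts. With the effective nuclear library size (counts of nuclear loci times a scaling factor from the trimmed mean of M values) it was 3.71, 0.83 and 1.76, and 2.01 in lec2-1 over Ws, against 2.76 with all counts. In whole seeds, fewer cells or plastids of a kind and less RNA in each cannot be told apart.

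**Figure D2:**
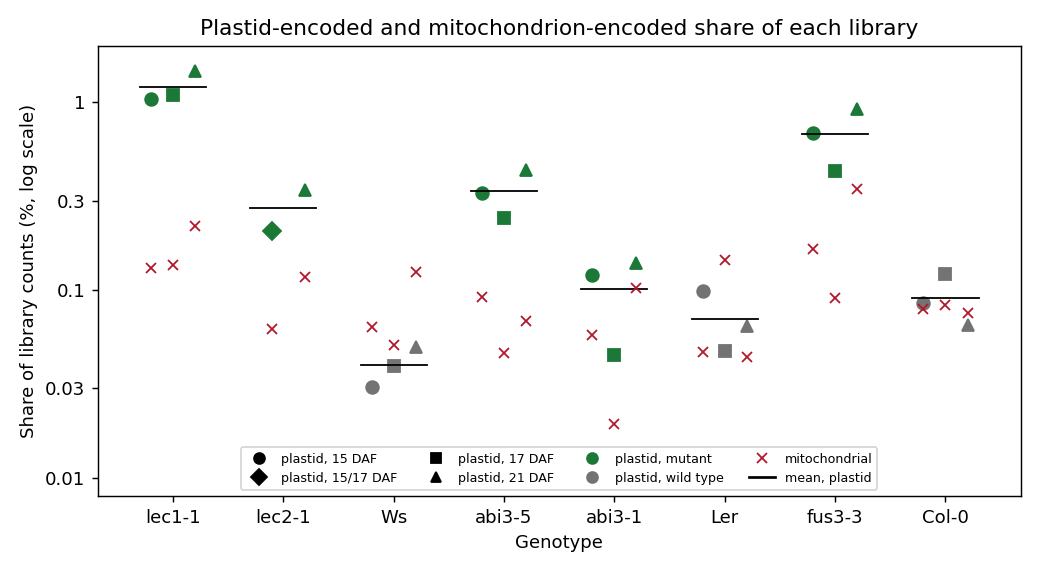
Share of library counts (percent, log axis) from plastid-encoded loci (filled symbols, shape by day) and mitochondrion-encoded loci (crosses) in each library, by genotype, with each mutant left of its wild type. Lines are means of the plastid shares. The lec1-1 libraries sit between 1.04 and 1.48%, all Ws libraries below 0.05%, and abi3-1 overlaps Ler.

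A few genes made up most of the plastid counts. Sums over all libraries weigh lec1-1 and fus3-3 most, with 28323 to 41397 plastid counts in a library against 935 to 13294 in the others. As means over libraries, photosystem I took 8.19% and ribosomal protein genes 25.9%, where the sums below give 5.41 and 29.3%. Over all libraries rps4, a protein of the small ribosomal subunit, held 19.5% of 281545 plastid counts. Together with atpB (beta subunit of the plastid ATP synthase) and ndhC (a subunit of the NDH complex, which cycles electrons around photosystem I) it made up 47.6%, the leading 10 genes 74.2% and the leading 20 genes 87.5%. By class, ribosomal protein genes took 29.3% of all plastid counts, ATP synthase 25.9%, NDH complex 13.4%, photosystem II 8.52%, polymerase 6.04%, photosystem I (with the assembly factors ycf3 and ycf4) 5.41%, other genes 4.22%, cytochrome b6f 3.66%, transfer RNA 2.10% and rubisco, the single gene rbcL, 1.55%. The make-up depends on gene length: as means over libraries, photosystem II took 10.7% of counts but 25.4% of counts per kilobase, ATP synthase 22.8 and 14.2%, transfer RNA 1.45 and 7.70%, cytochrome b6f 5.12 and 1.92%, and rubisco 1.18 and 0.397%.

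Per length, the order differed from that of the raw counts. Among the protein genes above, the mean level per kilobase, in CPM of the library total averaged over libraries, was 1254 for rps4, 900 for ndhC, 595 for atpE, 468 for psbJ and 413 for atpB. It was 34.9 for rbcL and 25.9 for psbA, which encodes the D1 reaction centre protein of photosystem II. In leaves psbA and rbcL are among the most abundant plastid messengers.

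The mean share of ribosomal protein genes in the plastid counts was larger in each mutant than in its wild type. They made up 40.3 ± 4.88% (SD, n = 3 unless given) in lec1-1 and 28.0 ± 5.64% in Ws, 38.8 ± 4.79% in abi3-5 and 21.6 ± 7.59% in Ler, and 15.4 ± 2.56% in fus3-3 and 6.50 ± 2.21% in Col-0. In the tolerant mutants they made up 32.7 ± 0.597% in lec2-1 (n = 2) and 26.6 ± 7.89% in abi3-1, where libraries overlapped those of the wild type. rps4 carried much of this. Without it the ribosomal protein genes made up 9.79 ± 1.93% in lec1-1, 8.16 ± 1.93% in lec2-1 (n = 2) and 10.4 ± 4.86% in Ws, and 7.77 ± 3.74% in abi3-5, 4.99 ± 2.59% in abi3-1 and 4.58 ± 2.45% in Ler, with overlap of each mutant and its wild type. In fus3-3 and Col-0 they made up 11.3 ± 0.508% and 3.42 ± 1.79% without rps4, with no overlap.

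Photosystem II genes went the other way in the means, with 7.23 ± 0.457% in lec1-1 and 15.0 ± 2.88% in Ws, 7.81 ± 1.59% in abi3-5 and 14.3 ± 6.09% in Ler, and 9.39 ± 2.41% in fus3-3 and 12.5 ± 3.91% in Col-0. The tolerant mutants also had lower means than their wild types, at 9.02 ± 1.99% in lec2-1 (n = 2), below every Ws library, and 9.69 ± 2.21% in abi3-1 (SD, n = 3 unless given). Shares of a whole cannot all move one way, and no test was made of them.

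Photosystem I took 3.79 ± 0.985% in fus3-3 and 16.4 ± 8.70% in Col-0, 5.20 ± 2.03% in lec1-1 and 8.81 ± 4.24% in Ws, and 5.53 ± 2.40% in abi3-5 and 11.3 ± 8.16% in Ler. Nearly all of it was psaB, a core subunit that binds the reaction centre pigments, and psaB varied between days of 1 genotype: it made up 16.3, 7.20 and 23.6% of plastid counts in Col-0 at 15, 17 and 21 DAF, and 8.01, 18.7 and 4.06% in Ler. In Ler the SD of the photosystem I share between days was larger than the difference of its mean from that of abi3-5. The same held in Ws beside lec1-1, where the libraries overlapped (4.06 to 12.2% in Ws and 3.99 to 7.54% in lec1-1).

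**Figure D3:**
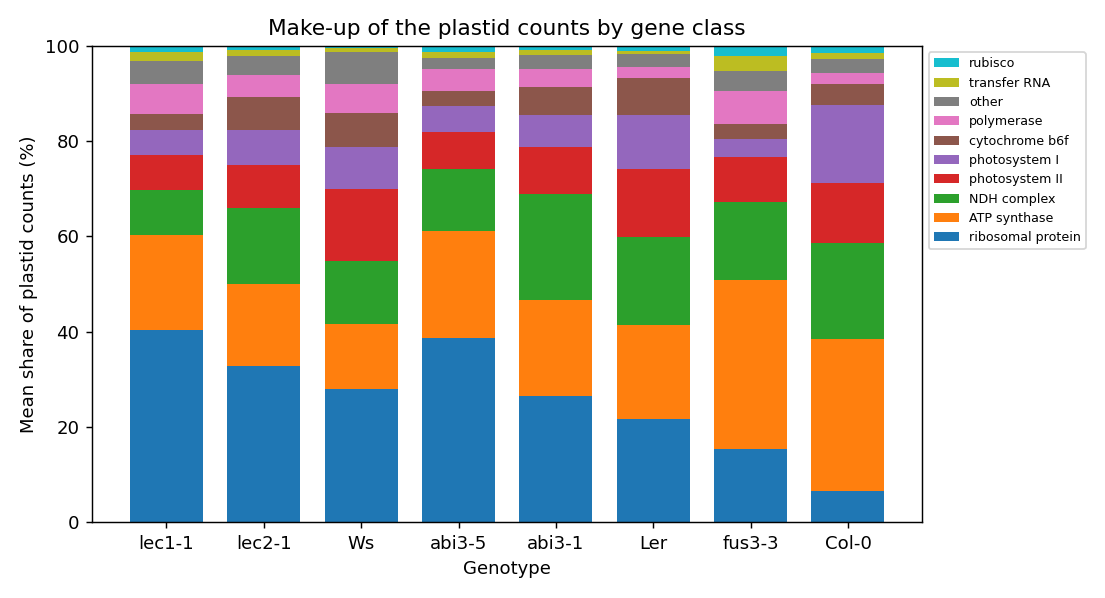
Mean share of plastid counts (percent) by gene class in each genotype, stacked to 100%, with each mutant left of its wild type. Ribosomal protein genes reach 40.3% in lec1-1 and 38.8% in abi3-5, and ATP synthase genes 35.3% in fus3-3 and 32.0% in Col-0.

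rps4 held the most plastid counts in 13 of the 23 libraries, among them all of lec1-1, lec2-1, Ws and abi3-5. In Ler rps4 led at 15 DAF, psaB at 17 DAF and ndhC at 21 DAF, and in abi3-1 rps4 led at 15 DAF and ndhC at 17 and 21 DAF. atpB led in all fus3-3 libraries and in Col-0 at 15 and 17 DAF, and psaB in Col-0 at 21 DAF. rps4 made up 32.4, 36.0 and 23.1% of plastid counts in lec1-1 at 15, 17 and 21 DAF, 25.5 and 23.6% in lec2-1, and 16.4, 18.3 and 18.1% in Ws. In the Landsberg erecta background it made up 33.1, 27.9 and 32.0% in abi3-5, 32.3, 18.5 and 14.0% in abi3-1, and 25.1, 12.3 and 13.6% in Ler. In the Columbia background it made up 2.49, 3.37 and 6.46% in fus3-3 and 2.77, 3.60 and 2.88% in Col-0. All libraries of the Columbia background thus lay below every library of the other ecotypes.

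atpB showed the opposite order between ecotypes. It made up 35.0, 22.1 and 23.6% of plastid counts in fus3-3 and 23.1, 20.3 and 19.9% in Col-0 at 15, 17 and 21 DAF. Its mean share was 14.0 ± 5.86% in lec1-1 and 6.87 ± 1.68% in Ws, and 15.7 ± 2.55% in abi3-5 and 10.8 ± 1.93% in Ler (SD, n = 3 each), and the lec1-1 library of 21 DAF, at 20.6%, lay within the range of the Columbia background. In a comparison added after these values were seen, Col-0 over the mean of Ws and Ler, atpB was the single plastid locus called (0.653% of all loci were called), higher in Col-0 by 1.96 ± 0.38 (log2 ± SE, adjusted p = 0.0119). The level of rps4 differed by -1.85 ± 0.55 (adjusted p = 0.189) there and did not pass. Without Col-0 of 17 DAF, alone or with that of 21 DAF, 0 plastid loci were called.

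**Figure D4:**
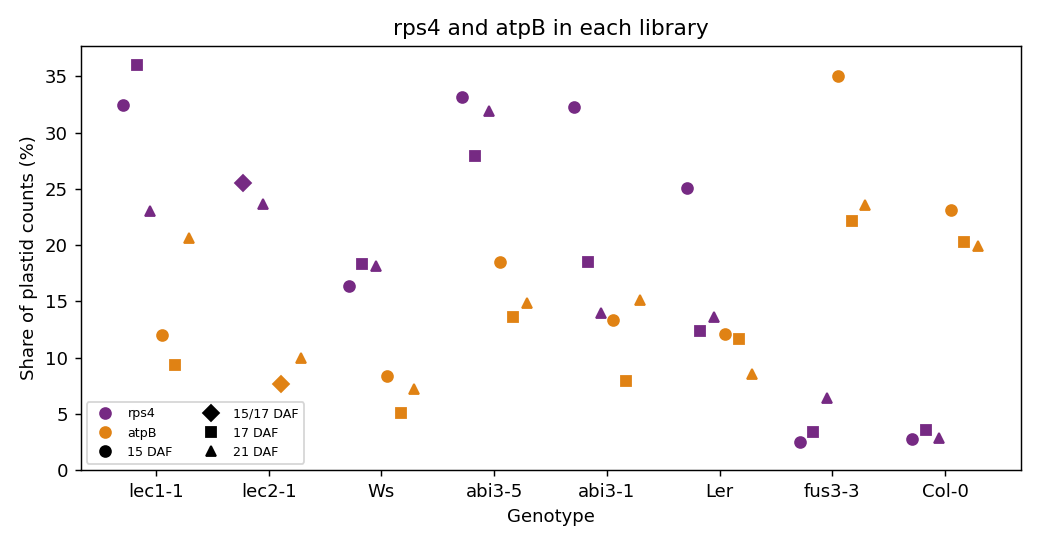
Share of plastid counts (percent) of rps4 (purple, left) and atpB (orange, right) in each library, by genotype, with the shape of the symbol giving the day and each mutant left of its wild type. rps4 stays at 6.46% or less in fus3-3 and Col-0 and lies at 12.3% or more in the other genotypes.

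Single genes were tested with edgeR's quasi-likelihood test on counts scaled by the trimmed mean of M values (TMM), which sets the typical locus to no change, over 16085 loci and with Benjamini-Hochberg adjustment. Levels below are CPM after that scaling. The fold changes are smaller on this scale than those of the raw shares. With library totals in place of TMM the median of all loci moved to 1.21 in lec1-1 over Ws, 0.66 in lec2-1 over Ws, 1.49 in abi3-5 over Ler, 0.29 in abi3-1 over Ler and 1.13 in fus3-3 over Col-0 (log2), and changes are reported relative to the typical locus unless stated.

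In lec1-1 over Ws, 59 of the 68 tested loci were higher and none lower, where 14.5% of all loci were called higher and 9.15% lower. The filter takes in the libraries of all genotypes, so a locus can pass it through 1 high genotype. Among the 59, trnT had 3.01, 4.25 and 3.78 CPM of library totals in lec1-1 and 2.41 CPM or less in every other library. Such loci entered through the group where they are high and are no separate evidence of a rise. Of the 68, 7 were at 0 in Ws. The median log2 change was 3.73 over the tested plastid loci (3.58 with loci at 0 in Ws set to their bound) and 0.03 over all loci. Called loci came from all 10 classes with a tested locus: 14 of 15 ribosomal protein genes, all 6 ATP synthase genes, 11 of 14 of photosystem II, 7 of 8 of the NDH complex, 5 of 7 of photosystem I, 3 of 4 polymerase genes, both tested genes of cytochrome b6f, rbcL, 4 of 5 transfer RNAs and all 6 other genes.

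The large subunit of rubisco, the carbon-fixing enzyme, changed most among protein genes with an average of at least 20 counts. rbcL had 81.1, 105 and 100.04 CPM in lec1-1 at 15, 17 and 21 DAF, against 1.85, 2.59 and 3.58 CPM in Ws, and rose by 5.18 ± 0.62 (log2 ± SE, adjusted p = 8.86e-05). Each lec1-1 library was far above each Ws library. rpl16, of the large ribosomal subunit, rose by 5.16 ± 0.88 (adjusted p = 0.000699), and trnK, a lysine transfer RNA with matK in its intron, by 5.75 ± 1.45 (adjusted p = 0.0085). Both rest on few wild-type counts: 3, 1 and 1 for rpl16 and 1, 1 and 2 for trnK in Ws at 15, 17 and 21 DAF. The call of rpl16 held when each library was left out in turn, and that of trnK did not always hold.

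rps4 had 1987, 2675 and 2058 CPM in lec1-1 and 94.5, 127 and 84.9 CPM in Ws at 15, 17 and 21 DAF. It rose by 4.45 ± 0.65 (adjusted p = 0.000252), with no overlap. atpB rose by 4.75 ± 0.53 (adjusted p = 6.72e-05), ndhC by 3.02 ± 0.50 (adjusted p = 0.000581) and rpoA, the alpha subunit of the plastid polymerase, by 3.85 ± 0.73 (adjusted p = 0.00136).

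psbA stood apart from this rise. It had 60.2, 60.9 and 40.7 CPM in lec1-1 and 38.3, 46.7 and 16.5 CPM in Ws at 15, 17 and 21 DAF, and its log2 change of 0.69 ± 0.80 did not pass (adjusted p = 0.559). The lec1-1 and Ws libraries overlapped. The other 8 tested loci not called were rpoB, trnC, ndhJ, psaI, rpl20, psbB, psbN and psaC, which held 8 to 60 counts in lec1-1 and 0 to 8 in Ws.

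In lec2-1 over Ws, 7 of 68 loci were higher and none lower, where 1.85% of all loci were called higher and 0.0373% lower, and the median was 1.93 over the plastid loci and -0.01 over all loci. Those called were rbcL (2.85 ± 0.63, adjusted p = 0.022), petA, the cytochrome f gene (2.71 ± 0.50, adjusted p = 0.00795), trnH (2.50 ± 0.57, adjusted p = 0.0265), the ATP synthase genes atpA, atpB and atpE, and ndhC. All 68 had a positive fitted change, but 7 of them were at 0 in Ws, where the fitted value depends on the prior count of the fit. Of these, trnC and trnT held 1 count each in lec2-1, so their sign carries no weight. With loci at 0 in Ws set to their bound the median was 1.85. lec2-1 has 2 libraries, and leaving out any library of lec2-1 or Ws left 0 to 2 called.

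In abi3-5 over Ler, 1 locus was higher, where 4.23% of all loci were called higher, and 1 lower, where 3.75% were. The median log2 change was 0.63 over the plastid loci (0.51 with loci of a group at 0 set to their bound) and 0.05 over all loci. The higher locus was rps19, of the small ribosomal subunit, with 4.53, 4.34 and 50.9 CPM in abi3-5 and 4.32, 0.813 and 1.98 CPM in Ler at 15, 17 and 21 DAF. The library of 21 DAF was the high one, and the lowest abi3-5 value lay barely above the highest of Ler. rps19 rose by 2.51 ± 0.77 (adjusted p = 0.0499), and its change was 1.05 without abi3-5 of 21 DAF, where the call was lost. It was also lost without Ler of 17 DAF (2.35) or of 21 DAF (1.93).

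The lower locus was psbA, with 4.82, 2.28 and 2.94 CPM in abi3-5 and 12.2, 85.3 and 24.3 CPM in Ler, where all abi3-5 libraries lay below all Ler libraries. It fell by 3.45 ± 0.94 on the log2 scale (adjusted p = 0.0291). The call was lost without Ler of 17 DAF (-2.32), without abi3-5 of 17 DAF (-3.08) or of 21 DAF (-3.29), and with library totals (-1.92), which left the sign unchanged.

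With library totals, 33 plastid loci were called higher in abi3-5 and none lower, where 48.4% of all loci were called higher, so the count in abi3-5 depended on the scaling and its share, 33 of 68, was that of all loci. On the same scaling 67 plastid loci were called higher in lec1-1 (39.6% of all loci were), 21 in lec2-1 (4.68% of all loci were) and 52 in fus3-3 (34.4% of all loci were). On the TMM scale, 43 of the 68 changes were positive and 25 negative, and with library totals 61 were positive. The signs differed by class on the TMM scale: the median change was 1.64 over the 15 tested ribosomal protein genes and 1.89 over the 4 polymerase genes, but -0.19 over the 14 of photosystem II and -0.65 over the 7 of photosystem I. Apart from rps19 and psbA none of these genes passed the test.

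In abi3-1 over Ler no plastid locus was called, where 0.00622% of all loci were called, 1 passed at an unadjusted p under 0.05, and DESeq2 also called 0. The median log2 change was 0.00 over the plastid loci and -0.01 over all loci.

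In fus3-3 over Col-0, 24 of 68 loci were higher and none lower, where 10.3% of all loci were called higher and 8.67% lower, and the median was 1.74 over the plastid loci (1.58 with loci of a group at 0 set to their bound) and 0.02 over all loci. Ribosomal protein genes were called in 10 of 15 cases, while none of 7 of photosystem I and 2 of 14 of photosystem II (psbE and psbK) were. The ATP synthase genes atpA, atpB and atpE, the polymerase genes rpoA and rpoC1, the NDH genes ndhA and ndhF, petA, rbcL, trnH and, of the other class, ycf1 and ccsA made up the rest.

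Large changes in fus3-3 were in rpl36 and rpl16 of the large ribosomal subunit, which belong to the ribosomal protein cluster that ends with rpoA. rpl36 held 316 counts in fus3-3 and 2 in Col-0, and rose 38.8-fold with an exact 95% interval of 10.7 to 322 that covers counting error only (adjusted p = 0.00105). rpl16 held 376 counts in fus3-3 and 3 in Col-0, and rose 30.8-fold (10.5 to 149.9, adjusted p = 0.00183). The fus3-3 libraries lay above the Col-0 libraries at both genes.

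In contrast, psaB had 170, 72.4 and 251 CPM in fus3-3 and 218, 90.1 and 293 CPM in Col-0, where the libraries overlapped. Its log2 change was -0.28 ± 0.69 (adjusted p = 0.815), and 0.39 ± 0.92 (adjusted p = 0.811) for psbA. atpB had 1418, 664 and 1517 CPM in fus3-3 and 307, 254 and 248 CPM in Col-0, without overlap, and rose by 2.05 ± 0.47 (adjusted p = 0.00635). With the Col-0 libraries of 17 and 21 DAF left out, 7 plastid loci were called higher in fus3-3, where 1.10% of all loci were, and 31 with these exchanged, where 12.4% were.

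**Figure D5:**
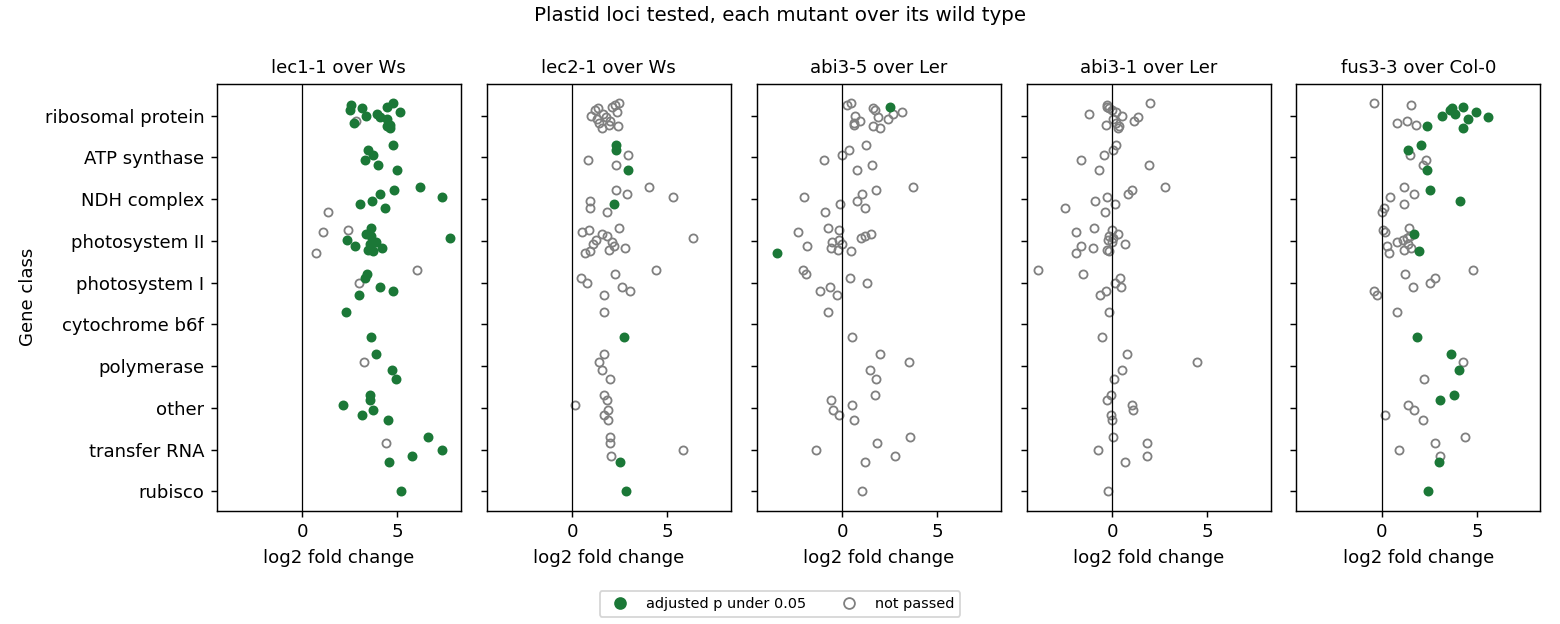
Fitted log2 change of each tested plastid locus, by gene class, in each mutant over its wild type. Filled points passed an adjusted p under 0.05, and values of loci at 0 in a whole group depend on the prior count of the fit. The 59 called loci of lec1-1 span all classes, while in fus3-3 the called loci include 10 of 15 ribosomal protein genes and none of photosystem I.

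The design compares intolerant with tolerant mutants within an ecotype, here as the mean of lec1-1 over lec2-1 and abi3-5 over abi3-1. In this comparison 23 of 68 plastid loci were higher and none lower, where 9.46% of all loci were called higher and 7.49% lower. The median was 1.17 over the plastid loci and 0.01 over all loci. Genes of the ribosome and the polymerase (grouped after their values were seen) were called in 11 of 19 cases, with a median of 1.70, and genes of photosynthesis and electron transport in 9 of 38, with a median of 0.82. In fus3-3 over Col-0 the counts were 12 of 19 and 9 of 38, and in lec1-1 over Ws 17 of 19 and 32 of 38. The comparison of lec2-1 with Ws went the other way, with 0 of 19 and 6 of 38 called and medians of 1.67 and 2.18. In abi3-5 over Ler 1 of 19 and 0 of 38 were called higher, with medians of 1.73 and -0.07.

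The largest changes between intolerant and tolerant mutants, among called loci with a mean of at least 20 counts, were in rpl14 (adjusted p = 0.0127) and rpl16 (adjusted p = 0.0111). rpl14 and rpl16 held 47 and 24 counts in abi3-5 and 1 each in abi3-1, so that their ratios of 19.8 (3.38 to 798) and 10.1 (1.65 to 415) there are wide. atpB (1.74 ± 0.35, adjusted p = 0.00293) and rbcL (1.79 ± 0.39, adjusted p = 0.00478) were also higher in the intolerant mutants, and 39 loci were called with library totals (32.1% of all loci were called higher), 7 when either lec2-1 library was left out and 13 without abi3-5 of 21 DAF.

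The effect of lec1-1 was larger than that of abi3-5 at 7 loci and smaller at none, where 0.267% of all loci were called larger and 0.0684% smaller: trnS (ATCG00090), psbZ, ndhC, atpE, atpB, rbcL and petA. For ndhC, lec1-1 had 589, 694 and 467 CPM against 69.8, 99.8 and 46.3 CPM in Ws, while abi3-5 had 169, 160 and 104 CPM against 230, 59.3 and 176 CPM in Ler. The lec1-1 and Ws libraries do not overlap, and the abi3-5 and Ler libraries do. Of the gene sets above, 0 of 19 genes of the ribosome and the polymerase were called here and 6 of 38 of photosynthesis and electron transport. Leaving out single libraries left 0 to 8 such loci, and library totals left 2, where 0.168% of all loci were called larger. For the effect of fus3-3 minus that of abi3-5, no plastid locus was called (0.280% of all loci were called, 12 plastid loci passed at an unadjusted p under 0.05, and DESeq2 called 0). The median difference was 1.38 over the 68 loci, and 1 locus was called without Col-0 of 17 DAF.

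With genotypes as the repeats, no plastid locus passed the test between 15 and 21 DAF. In the wild types 0 of 67 were called (0.113% of all loci were), 3 passed at an unadjusted p under 0.05 and DESeq2 called 0, with a median of -0.24 for 21 over 15 DAF. In the intolerant mutants 0 were called (0.107% of all loci were), 8 passed unadjusted and DESeq2 called 1, with a median of 0.68. The difference between the 2 classes was called at 0 loci by edgeR and by DESeq2 (0% of all loci were called), with 3 at an unadjusted p under 0.05. The wild-type result depended on Col-0: 7 loci were called with its libraries of 17 and 21 DAF exchanged (29.0% of all loci were), 3 without Col-0 (16.1% of all loci were) and 5 without its library of 21 DAF (20.5% of all loci were).

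Nuclear genes that transcribe the plastid genome were set beside these values. Of the 6 sigma factors, 3 were higher in lec1-1, 1 in lec2-1, 3 in abi3-5, none in abi3-1 and 2 in fus3-3, where 1 was lower. Of all loci, 14.5% were called higher in lec1-1, 1.85% in lec2-1, 4.23% in abi3-5 and 10.3% in fus3-3. SIG6 was higher in lec1-1 over Ws (3.05 ± 0.70, adjusted p = 0.00504), in abi3-5 over Ler (4.11 ± 0.80, adjusted p = 0.00335) and in fus3-3 over Col-0 (4.84 ± 0.82, adjusted p = 0.00104). It held 295, 282 and 575 counts in these mutants, but only 20 in Ws, 7 in Ler and 5 in Col-0. SIG1 held 144 counts in lec1-1 and 119 in lec2-1 against 3 in Ws, and was higher in lec1-1 (ratio 20.8, 6.99 to 102, adjusted p = 0.00197) and in lec2-1 (ratio 31.6, 10.6 to 155, adjusted p = 0.0109). Its log2 changes were 2.34 ± 0.76 in abi3-5 (adjusted p = 0.0638) and 1.86 ± 0.72 in fus3-3 (adjusted p = 0.0755).

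SIG4 was called higher in all 3 intolerant mutants but held 57 counts in lec1-1, 38 in abi3-5 and 73 in fus3-3, against 2 in Ws and 0 in Ler and Col-0. SIG3 was higher in abi3-5 (2.72 ± 0.77, adjusted p = 0.0343). SIG5, which responds to stress and blue light, was lower in fus3-3 (-2.28 ± 0.77, adjusted p = 0.0452), with -1.93 ± 0.81 in lec1-1 (adjusted p = 0.0875) and -1.15 ± 0.78 in abi3-5 (adjusted p = 0.393). For SIG2 the changes were 1.49 ± 0.56 in lec1-1 (adjusted p = 0.0584), 1.81 ± 0.56 in abi3-5 (adjusted p = 0.05002) and 0.82 ± 0.53 in fus3-3 (adjusted p = 0.295).

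None of the 3 phage-type polymerase genes passed in any mutant over its wild type. RPOT3, the plastid form, had changes of 0.62 ± 0.86 in lec1-1 (adjusted p = 0.63), 1.36 ± 0.86 in abi3-5 (adjusted p = 0.356) and 1.18 ± 0.91 in fus3-3 (adjusted p = 0.388). Of the 12 proteins associated with the bacterial-type polymerase, 2 were higher in each of lec1-1, abi3-5 and fus3-3, none in lec2-1 or abi3-1, and none lower. That is 2 of 12 beside the 14.5, 4.23 and 10.3% of all loci called higher, which is near the background in lec1-1 and fus3-3. PAP4 and PAP12 were those in lec1-1 (2.21 ± 0.40 and 2.66 ± 0.62) and in fus3-3 (1.75 ± 0.40 and 2.11 ± 0.65), and PAP2 and PAP7 in abi3-5 (2.51 ± 0.69 and 2.49 ± 0.67).

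Nuclear subunits of the complexes that plastid genes also build were called unevenly. In lec1-1, where 14.5% of all loci were called higher, 11 of 12 of photosystem I, 10 of 10 of photosystem II, 3 of 3 tested rubisco small subunits and 4 of 5 of the ATP synthase and cytochrome b6f were higher. In lec2-1 these counts were 10, 8, 1 and 2 (1.85% of all loci). Of the plastid-encoded loci, 0 of 7 of photosystem I and 0 of 14 of photosystem II were called there. Their median log2 changes were 2.24 and 1.70, so the lack of calls, with 2 lec2-1 libraries, does not show a lack of change. In abi3-5 the counts were 1, 1, 2 and 2 (4.23% of all loci), and in fus3-3 0, 2, 3 and 1 (10.3% of all loci), while in abi3-1 none was called.

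The nuclear PSI gene PSAD-1 rose by 5.73 ± 1.18 in lec1-1 (adjusted p = 0.0023) and by 3.24 ± 0.97 in abi3-5 (adjusted p = 0.0463), and had 2.70 ± 1.01 in fus3-3 (adjusted p = 0.0666). PSBQA, a subunit of the oxygen-evolving complex, rose by 4.28 ± 0.88 in lec1-1 (adjusted p = 0.00226), 3.03 ± 0.84 in abi3-5 (adjusted p = 0.0312) and 3.02 ± 0.85 in fus3-3 (adjusted p = 0.0198). RBCS2B, a rubisco small subunit, rose by 4.15 ± 0.85 in lec1-1 (adjusted p = 0.0026), 4.42 ± 0.92 in abi3-5 (adjusted p = 0.00735) and 3.82 ± 0.93 in fus3-3 (adjusted p = 0.0101), whereas its plastid partner rbcL had 1.02 ± 0.52 in abi3-5 (adjusted p = 0.247) and rose by 2.41 ± 0.52 in fus3-3 (adjusted p = 0.00462).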

How the data were processed

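The authors deposited raw counts of reads per locus for 24 samples, 1 column each, made against TAIR10 per the submitters' processing notes. Those notes also name edgeR, with no version, and aligner, counter and treatment of reads with several matches are not given in the sources used here. Per the labels' protocols, total RNA was pooled, amplified by transcription in vitro, and read on the SOLiD platform with barcodes. The deposited normalized table was not used, and 0 sample columns lacked a label.

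From these counts, shares are plastid counts over all counts of a library. Tests used edgeR 4.0.16 in R 4.3.3 on 23 distinct libraries: filterByExpr (minimum count 10), TMM (factors 0.486 to 1.91), a term for each genotype and each day, quasi-likelihood tests over 16085 loci, and Benjamini-Hochberg adjustment at 0.05. SE is the log2 change over the root of F. A second fit of 18 libraries compared days over 15902 loci. The procedure was tested on simulated data. Alternatives were library totals, RLE scaling, no filter, DESeq2 1.42.0, no day term, summed copies of the inverted repeat, other treatments of doubtful libraries, and each library left out.

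The members and gene lists were chosen with earlier results of these data known. Loci named are the 3 with most counts in each class (7 in photosystem II), in each comparison up to 3 called higher and 3 lower with the largest change in 1 direction and a mean of at least 20 counts, all sigma factors, and up to 4 of each nuclear list by adjusted p. The codes of loci not called in lec1-1 or called elsewhere were named after their values were seen. Nuclear and marker lists are of textbook genes, and a fold against a group at 0 is a bound against 3 counts over the group. Results of 1 named locus are not reported here.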

Additional observations from a re-analysis of the deposited data

Results flagged for a closer look

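At 7 plastid loci the effect of lec1-1 over Ws was larger than that of abi3-5 over Ler by a test of the difference itself (edgeR, adjusted p under 0.05). The differences on the log2 scale were 4.42 for psbZ, a small subunit of photosystem II, 4.16 for rbcL, 3.50 for atpB, 3.14 for ndhC, 3.09 for petA and 3.08 for atpE. The fitted difference of 8.73 for trnS (ATCG00090) rests on Ws libraries at 0: the gene held 79 counts in lec1-1 and was at least 11.4-fold higher there than the limit of 3 counts over Ws. In psbZ, lec1-1 had 35.1, 38.1 and 24.7 CPM against 3.71, 2.59 and 1.10 CPM in Ws, while abi3-5 had 3.97, 3.42 and 7.78 CPM against 15.3, 6.50 and 3.47 CPM in Ler. The number of such loci was 0 without Ws of 21 DAF, Ler of 15 DAF or abi3-5 of 17 DAF, 1 without Ws of 15 DAF, 2 without Ws of 17 DAF or lec1-1 of 17 or 21 DAF, 3 without lec1-1 of 15 DAF or Ler of 17 DAF and 4 without abi3-5 of 15 or 21 DAF. Silique wall markers were higher in lec1-1 (10.6 to 15.4 CPM) than in Ws (2.35 to 5.51 CPM), and their part in the difference was not tested.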

How the results depend on the processing

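Each genotype and day is 1 library, so the tests rest on the spread left between libraries after the terms for genotype and day. Many plastid loci held few counts in the wild types. All 6 ratios of plastid shares kept their sign under the alternatives that were run. The mean log2 ratio of the share was 4.18 without seed storage genes in the denominator and 3.71 with the effective nuclear library size in lec1-1 over Ws, and 1.54 and 0.83 in abi3-5 over Ler, and 2.14 and 1.76 in fus3-3 over Col-0, with 2.01 by the effective size in lec2-1 over Ws and 1.20 in intolerant over tolerant mutants. Without single libraries these log2 ratios ran from 4.75 to 5.10 in lec1-1, 2.40 to 3.12 in lec2-1, 2.03 to 2.56 in abi3-5, 0.14 to 0.95 in abi3-1, 2.63 to 3.18 in fus3-3 and 1.75 to 2.19 in intolerant over tolerant mutants. Per kilobase, the mean make-up was 25.4% photosystem II, 14.2% ATP synthase, 7.70% transfer RNA, 1.92% cytochrome b6f, 1.04% other genes and 0.397% rubisco. Plastid loci called with library totals were 21 in lec2-1, 33 in abi3-5, 52 in fus3-3, 39 in intolerant over tolerant mutants and 2 in lec1-1 minus abi3-5, where 4.68, 48.4, 34.4, 32.1 and 0.168% of all loci were called higher. Without the day term they were 4, 1, 12 and 1 in lec2-1, abi3-5, intolerant over tolerant mutants and lec1-1 minus abi3-5, and 0 in Col-0 over Ws and Ler. DESeq2 called 6 in abi3-5, 22 in lec1-1 minus abi3-5, 5 in Col-0 over Ws and Ler, and 1 in the intolerant mutants by day. With Col-0 of 17 and 21 DAF exchanged, the counts were 5 in abi3-5, 12 in lec1-1 minus abi3-5, 2 in Col-0 over Ws and Ler, 7 by day in the wild types and 1 in the difference by day. Without these libraries they were 5, 12, 7 and 0 in abi3-5, lec1-1 minus abi3-5, fus3-3 and Col-0 over Ws and Ler, without Col-0 3 by day in the wild types, without the filter 2 in Col-0 over Ws and Ler, and 1 in abi3-5 with the doubled lec2-1 library at 15 DAF. Without single libraries the counts ran from 41 to 55 in lec1-1, 0 to 2 in lec2-1, 0 to 5 in abi3-5, 16 to 28 in fus3-3, 7 to 23 in intolerant over tolerant mutants, 0 to 8 in lec1-1 minus abi3-5, 0 to 1 in fus3-3 minus abi3-5, 0 to 3 in Col-0 over Ws and Ler and 0 to 5 by day in the wild types. The causes of these changes were not tested. None of the named loci reversed: of 34 called in lec1-1, 28 kept the call under all alternatives, of 19 in fus3-3, 5, and of 18 in intolerant over tolerant mutants, 4. The call of none of the 7 in lec2-1 and the 2 in abi3-5 held under all.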

Other observations

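Transfer RNA genes held 16 of 37 codes with counts. Most of their counts, 75.9%, came from trnH, the histidine transfer RNA at the start of the plastid map (Pltd:4-76), which held 4495 counts over all libraries. trnH had 70.4, 109 and 89.5 CPM in lec1-1 against 5.56, 1.30 and 4.41 CPM in Ws at 15, 17 and 21 DAF, and rose by 4.54 ± 0.56 (log2 ± SE, adjusted p = 8.86e-05). In fus3-3 it had 121, 128 and 65.8 CPM against 9.98, 18.5 and 10.6 CPM in Col-0, and rose by 3.00 ± 0.51 (adjusted p = 0.000959). No library of either mutant overlapped its wild type. psbA, the next gene on the map (Pltd:383-1444), lies on the same minus strand and so upstream of trnH. It changed by 0.69 ± 0.80 in lec1-1 (adjusted p = 0.559) and 0.39 ± 0.92 in fus3-3 (adjusted p = 0.811).

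The genes of the small photosystem II subunits psbE, psbF, psbL and psbJ lie in this order on 1 strand and differed in level, with 29441, 17242, 2419 and 37789 counts per kilobase over all libraries. psbE, for the alpha subunit of cytochrome b559, had 108, 159 and 203 CPM in lec1-1 against 10.5, 22.0 and 13.5 CPM in Ws, and rose by 3.34 ± 0.61 (adjusted p = 0.00107). psbJ had 95.2, 108 and 94.6 CPM in lec1-1 against 20.4, 29.8 and 11.6 CPM in Ws, and rose by 2.34 ± 0.48 (adjusted p = 0.00221). In both, all lec1-1 libraries lay above all Ws libraries.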
